A study of Mus musculus with 4 samples.

Results

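The keratin and keratin-associated protein genes of the mouse were examined for CTCF binding in heart tissue. Members were all protein-coding genes of the annotation whose symbol starts with Krt and a digit or with Krtap, and 110 of 21755 protein-coding genes on chromosomes 1 to 19 and X met this rule. They were 53 keratin genes and 57 keratin-associated protein genes. Members closer than 200 kb to each other were joined, which gave 6 clusters. CTCF binding was measured by ChIP-seq, in which DNA bound by an antibody target is sequenced, on hearts of female B6CASTF1/J mice aged 2 months, an F1 hybrid of C57BL/6J and CAST/EiJ. Pool G, which the labels call biological replicate 2, and pool H, biological replicate 1, each combined 2 heart biosamples and were each sequenced as 2 technical libraries. No treatment or mutant was compared, and all libraries shared the tissue, sex, strain and age. The authors' conservative list of 54309 peak summits that passed in both pools is used throughout unless another list is named, and 62 of its summits lay inside the clusters and 72 within 100 kb of their borders.

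Keratins are the intermediate filament proteins of epithelial cells. A type I and a type II keratin pair with each other, and most of the genes of each type lie side by side in a cluster of their own. Keratin-associated proteins cross-link hair keratins in the growing hair shaft, and their genes are small, often made of a single exon, and arranged in arrays of similar copies. CTCF is a zinc finger protein that binds a long motif and, with cohesin, holds chromatin loops whose ends tend to carry motifs that face each other. Heart muscle relies on desmin, a filament protein outside the keratin family. Transcription was not measured in these samples, so whether the members were silent in these hearts was not tested.

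The clusters had the following make-up, with coordinates on mm10. The chromosome 11 cluster, chr11:99232761-100269871, spanned 1037.1 kb from Krt222 to Krt42 and held 27 type I keratin genes and 23 keratin-associated protein genes. The chromosome 15 cluster, chr15:101347444-102032027, spanned 684.6 kb from Krt80 to Krt18 and held 26 keratin genes, all type II apart from Krt18. The chromosome 16 cluster, chr16:88610705-89571183, spanned 960.5 kb from Krtap24-1 to Krtap11-1 and held 24 keratin-associated protein genes. Small clusters lay on chromosome 7 (chr7:142174535-142304594, 130.1 kb, 5 genes of the Krtap5 group), chromosome 10 (chr10:77720599-77837252, 116.7 kb, 3 genes within the gene body of Tspear) and chromosome 1 (chr1:83041524-83061921, 20.4 kb, 2 Krtap28 genes).

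The sites that the results below turn on are printed first. A CTCF core of 12 bases was searched within 100 bp of each summit on both strands with at most 1 mismatch. Each site is 30 bases of the GRCm38.p6 reference, which is C57BL/6J sequence, so that the CAST/EiJ allele is not shown. Each is read 5′ to 3′ on the strand that carries the core, and capitals mark the core. The first set holds the 6 sites inside the clusters with the core most common in the whole list, named by the nearest protein-coding gene.
Krt222 upstream, chr11:99244695-99244724, minus strand: ccagatacaCCAGAAGAGGGCatctgatcc
Krt222 distal, chr11:99256402-99256431, plus strand: ccacagaagCCAGAAGAGGGCgctggtccc
Krt24 upstream, chr11:99293011-99293040, minus strand: ctggagataCCAGAAGAGGGCatcagatcc
Krtap7-1 upstream, chr16:89525061-89525090, minus strand: ccattgaagCCAGAAGAGGGCaccagatct
Gm10100 in Tspear, chr10:77728452-77728481, plus strand: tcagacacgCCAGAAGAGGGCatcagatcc
Gm9736 in Tspear, chr10:77753674-77753703, minus strand: tcagaaacaCCAGAAGAGGGCatcagattc

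The second set holds 2 pairs of sites with the same core within the Krtap5 cluster of chromosome 7, all with the core on the minus strand, in order along the chromosome.
Krtap5 site 1, chr7:142250023-142250052: atcgagcttCCAGCAGGTGGCagccatact
Krtap5 site 2, chr7:142255734-142255763: ctctgaaagCCACACGGTGGCggtgtgaga
Krtap5 site 3, chr7:142278386-142278415: ctccagcagCCACACGGTGGCggcgtgaga
Krtap5 site 4, chr7:142295585-142295614: atgtagcttCCAGCAGGTGGCaggtagatg

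The third set holds the nearest sites outside the borders of the 2 clusters with keratin genes, and the strongest site with a core inside any cluster.
Left of Krt222, chr11:99221960-99221989, plus strand: tggtcttagCCAGCAGTGGGCagtggaatg
Right of Krt42, chr11:100282174-100282203, minus strand: cgcaaattaCCAGCAGATGGTgctctagct
Left of Krt80, chr15:101341956-101341985, plus strand: ttgcctctgCCAGGAGAGGGCagtggtggc
Right of Krt18, chr15:102087355-102087384, minus strand: acttatatgCCAGAAGAGGGCatcggattc
Upstream of Krt28, chr11:99379754-99379783, plus strand: ccgctatttCCACCAGGGGGCagtgctggc

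CTCF summits were nearly absent from the promoters of the members. A promoter was counted as bound when a summit lay within 1 kb of any annotated transcription start site (TSS) of the gene. Only Krt222, a keratin-like gene at the left end of the chromosome 11 cluster, met this, which makes 1 of 110 members (0.909%, exact binomial 95% interval 0.0230 to 4.96%). Of all protein-coding genes, 34.8% met it (7580 of 21755). No other member had a promoter summit. The members' interval lies wholly below the share of all genes, and intervals here cover counting error over genes or summits only, since neighbouring genes share their surroundings and the read depth is unknown.

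Krt222 (ENSMUSG00000035849.14, chr11:99232761-99244085, minus strand) carried a pair of summits. The stronger one lay upstream of a TSS, at -637 bp, with a signal of 213.8 in the conservative list and matched signals of 123.8 in pool G and 88.0 in pool H. The signal is the authors' own score for a peak, which has no stated unit and grows with depth, so levels are compared only within a list. The second summit lay 601 bp downstream of a TSS and had a signal of 92.2, matched by 50.6 in pool G and 39.5 in pool H. Both were below the list median of 285.9. The upstream site has the exact core printed above, and no core was found at the downstream summit. The base at the upstream summit is soft-masked, which is how the assembly marks sequence that is repeated or of low complexity.

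Promoters with few CpG dinucleotides were bound less often over the whole genome, at 16.7% of genes against 50.3% of the others, and nearly all members belong to the first class. The observed over expected CpG ratio within 500 bp of the gene start was under 0.5 in 106 of the 110 members, with a median of 0.236, against 10009 of the 21755 protein-coding genes and a median of 0.558. In this class 1 of 106 members was bound (0.943%, 0.0239 to 5.14%), against 16.7% of all genes of the class (1675 of 10009). Of the 4 members at or above the ratio, Krt18, Krt27, Krt28 and Krt87, 0 were bound, which 4 genes can hardly limit (interval up to 60.2%).

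Promoter summits were also counted by the tissue in which the keratins are known to work. Of the simple epithelial keratins, the keratins of single-layered epithelia, 0 of 6 had a promoter summit (interval up to 45.9%). Of the stratified epithelial keratins of skin, mouth and cornea, 0 of 22 had one (up to 15.4%). The inner root sheath keratins, which line the growing hair, had 0 of 7 (up to 41.0%), the hair keratins 0 of 15 (up to 21.8%) and the keratin-associated proteins 0 of 57 (up to 6.27%). The remaining 3 keratins, Krt222, Krt88 and Krt90, included the bound one. The intervals of the simple epithelial and inner root sheath groups hold the 34.8% of all protein-coding genes, and that of the hair keratins holds the 16.7% of the CpG-poor class, so these groups are too small to be told apart from such genes. The intervals of the stratified epithelial keratins and of the keratin-associated proteins lie below both shares.

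**Figure D1:**
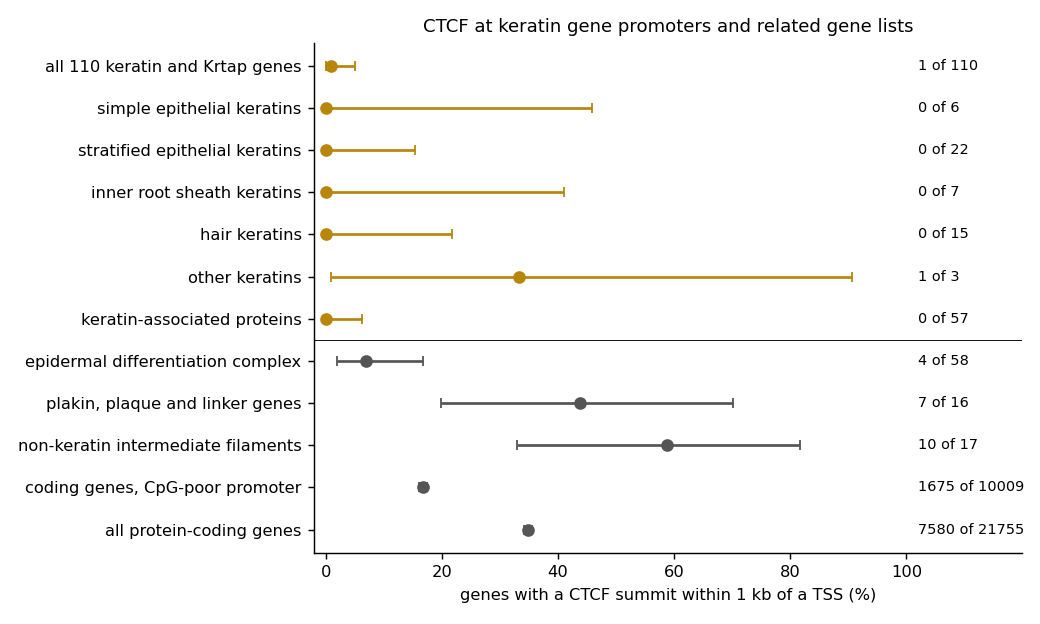
Share of genes with a conservative CTCF summit within 1 kb of a TSS (x axis, percent), by group of keratin genes (ochre, above the line) and by other gene lists (grey, below it). Points are shares, bars are exact binomial 95% intervals and the counts stand at the right; the 110 members lie at 0.909% and all protein-coding genes at 34.8%.

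Genes with related roles outside the keratin clusters were counted beside the members. The intervals of the first 2 lists below do not overlap that of the members, but both hold the 34.8% of all protein-coding genes, and the median CpG ratios of these lists were 0.752 and 0.664, against 0.236 in the members. Of the intermediate filament genes other than keratins, 10 of 17 had a promoter summit (58.8%, 32.9 to 81.6%). They included Lmna, a nuclear lamin gene, with a signal of 807.6, and Vim, the vimentin gene of mesenchymal cells, with 338.5, while Des, the desmin gene of muscle, had none. Of the plakin, plaque and linker genes, whose proteins tie filaments to junctions and to each other, 7 of 16 had one (43.8%, 19.8 to 70.1%), among them Plec (plectin, 753.3) and Jup (plakoglobin, 522.2), but not Dsp (desmoplakin). The epidermal differentiation complex of chromosome 3 holds genes of the cornified cell envelope and S100 genes, and 4 of its 58 genes had one (6.90%, 1.91 to 16.7%), with a median CpG ratio of 0.121 and an interval that overlaps that of the members. All 4 were S100 genes, which encode small calcium-binding proteins: S100a6 (605.3), S100a1 and S100a13 (229.2 each) and S100a3 (109.4).

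Distances from TSS to summit showed how far CTCF stayed from the gene starts. The median distance was 21.7 kb over the 110 members (interquartile range 8.72 to 41.6 kb), against 12.1 kb over the genes with a CpG-poor promoter (2.54 to 54.3 kb), the class of 106 of the members, and 3.70 kb over all protein-coding genes (0.340 to 18.1 kb). It was 14.8 kb for the keratins, close to that of the CpG-poor class, and 25.9 kb for the keratin-associated proteins. Within 5 kb lay 6 of 110 members (5.45%), against 34.5% of the CpG-poor class and 54.2% of all protein-coding genes. Within 100 kb lay 91.8% of members, against 82.3% of that class and 91.2% of all protein-coding genes. The keratins in particular had no far gene: all 53 lay within 53.0 kb of a summit, and the farthest keratin-associated gene, Krtap20-2, was 267.4 kb away.

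**Figure D2:**
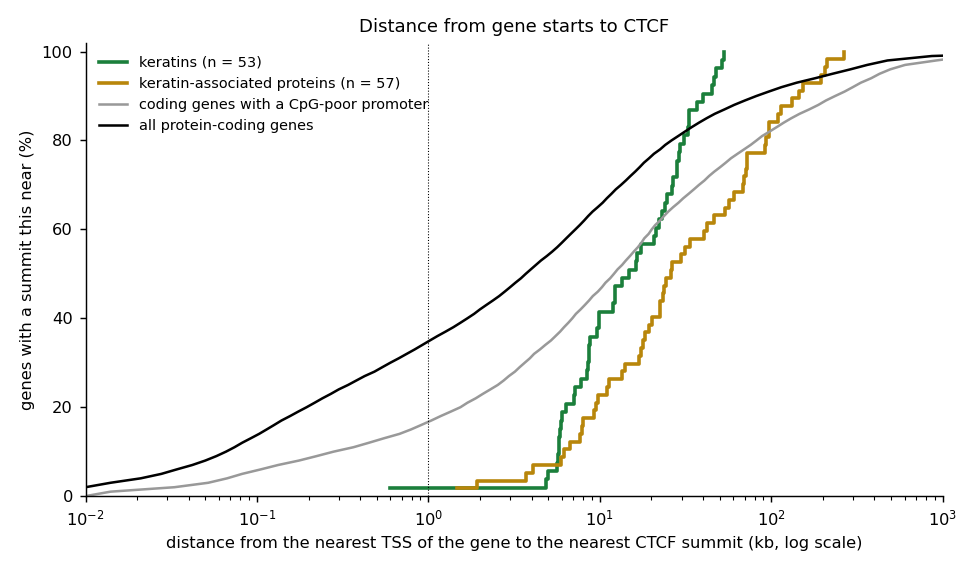
Distance from a gene's TSS to the nearest conservative CTCF summit (x axis, kb, log scale; the nearest TSS of each gene is used) against the share of genes with a summit this near (y axis, percent), for 53 keratins, 57 keratin-associated protein genes and, as thin lines, coding genes with a CpG-poor promoter and all protein-coding genes. The keratin curves start late, since only Krt222 lies left of the dotted line at 1 kb, and the keratin curve reaches 100% at 53.0 kb.

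For the genes of simple epithelia, Krt7 was the nearest to CTCF, with a summit 8688 bp from its TSS inside its own gene body. Krt8 and Krt18, which encode the pair of keratins found in most simple epithelia, lay 16200 bp and 39898 bp away at the right end of the chromosome 15 cluster. Krt19, Krt20 and Krt23, on chromosome 11, lay 20578, 24717 and 28160 bp away. These 5 genes thus had CTCF within 40 kb and none within 10 kb.

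Among the genes of stratified epithelia, the basal layer genes Krt5 and Krt14 had their nearest summits at 8643 and 5725 bp. The suprabasal pair differed, with Krt10 at 6345 bp and Krt1 at 51797 bp, inside the widest empty stretch of the chromosome 15 cluster. Krt80, a type II keratin gene at the left end of that cluster, had its nearest summit at 8473 bp, within its body. The nearest of all keratins after Krt222 was the inner root sheath gene Krt28, 4849 bp from the site printed above.

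The keratin-associated genes covered the widest range of distances. Krtap5-1 lay 1472 bp and Krtap14 1912 bp from the nearest summit, both just outside the promoter limit. On chromosome 11, Krtap4-9 and Krtap4-8 were 210868 and 206372 bp away. On chromosome 16 the farthest after Krtap20-2 was Krtap6-3, 145542 bp away, and 9 of the 57 keratin-associated genes lay more than 100 kb from any summit. The share within 100 kb was 84.2%, close to the 82.3% of the CpG-poor class, to which all 57 belong. Over all protein-coding genes it was 91.2%.

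Candidate peaks below the threshold added a few promoters. In the authors' ranked list matched between the pools, which holds 165935 candidates on these chromosomes before the IDR threshold (IDR is the irreproducible discovery rate, a measure of agreement in rank between replicates), 7 of 110 members had a candidate within 1 kb of a TSS (6.36%, 2.60 to 12.7%). Of all protein-coding genes, 64.1% had one. Beside Krt222 these were Krt72 (signal 62.2), Krtap5-4 (52.2), Krt8 (38.6), Krt78 (38.2), Krt10 (28.7) and Krt87 (28.3). Each of these 6 had the lowest scaled IDR of that list, 67, where 540 stands for an IDR of 0.05. In the second thresholded list of both pools Krt72 was bound as well, which made 2 of 110 members (1.82%).

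Inside the clusters as a whole, CTCF summits were about as dense as over the genome. The 62 summits over 2.95 Mb gave 21.0 summits per Mb (exact Poisson 95% interval 16.1 to 26.9), against 20.6 per Mb for the whole list. The whole-list value counts unsequenced bases, of which the clusters hold none, and it was 21.2 per Mb without them. The flanks held 72 summits in 1.20 Mb, or 60.0 per Mb (46.9 to 75.6), and the interval lies above all of these values. Pooled over the clusters, density inside therefore differed from the flanks by more than counting error, while its interval held the value of the whole list. By cluster the intervals of inside and flanks were apart on chromosomes 11 and 15 and overlapped on the other 4. The same order held in the list of pool G alone, with 20.7 per Mb inside and 64.2 in the flanks, and of pool H alone, with 20.7 and 50.

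**Figure D3:**
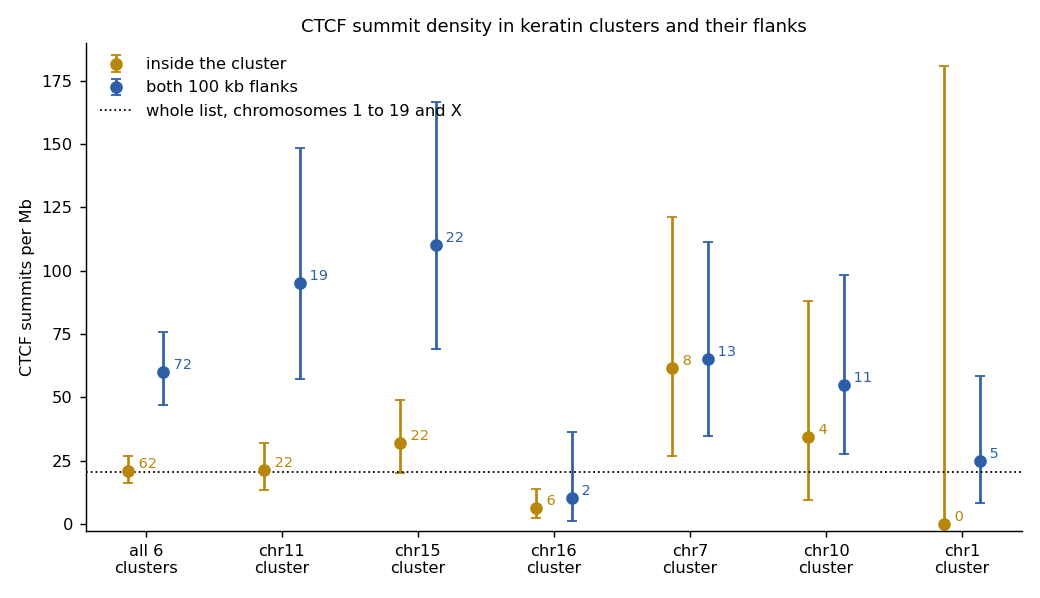
CTCF summits per Mb (y axis) inside each keratin cluster (ochre) and in both its 100 kb flanks (blue), with exact Poisson 95% intervals as bars and the number of summits beside each point. The dotted line is the whole list at 20.6 per Mb. With its whole interval, the chromosome 16 cluster lies below it. The chromosome 7 cluster, the pooled flanks and the flanks of the chromosome 7, 10, 11 and 15 clusters lie above it with theirs.

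The clusters differed from each other. The chromosome 16 cluster of keratin-associated genes had 6 summits, 6.25 per Mb (2.29 to 13.6), which lies below the whole list beyond counting error. The chromosome 15 keratin cluster had 22 summits, 32.1 per Mb (20.1 to 48.7), and the chromosome 11 cluster 22 summits, 21.2 per Mb (13.3 to 32.1), and both intervals hold the density of the whole list. On chromosome 7, the Krtap5 cluster, also of keratin-associated genes, had 8 summits, 61.5 per Mb (26.6 to 121.2), which lies above the whole list beyond counting error. The chromosome 10 cluster had 4 summits, 34.3 per Mb (9.34 to 87.8), and the chromosome 1 cluster had 0 in 20.4 kb, which allows up to 180.8 per Mb. Low density was not rare in the genome: of 2625 tiles of 1 Mb, 27.2% held 6 summits or fewer, and the median tile held 16. The tiles cover the full chromosome lengths, so unsequenced bases, absent from the clusters, can raise that share and lower that median.

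The flanks differed as much. On chromosome 11 the left flank held 5 summits and the right flank 14, around Eif1, a translation initiation factor gene, and Hap1. On chromosome 15 each flank held 11, around Nr4a1 and Atg101 on the left and Eif4b and Tns2 on the right. The chromosome 16 cluster had 2 summits in its left flank and 0 in its right flank. The flanks thus reached 95 per Mb on chromosome 11 and 110 per Mb on chromosome 15. They had 65 per Mb on chromosome 7, 55 on chromosome 10, 25 on chromosome 1 and 10 on chromosome 16, and on chromosomes 7 and 16 these values were close to the 61.5 and 6.25 per Mb inside.

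Within the chromosome 11 cluster the summits were unevenly spread. The left keratin stretch, Krt222 to Krt40, 310.4 kb with 12 genes, held 15 summits, 48.3 per Mb (27.0 to 79.7). The keratin-associated stretch in the middle, Krtap3-3 to Krtap17-1, 443.9 kb with 23 genes, held 1 summit, 2.25 per Mb (0.0570 to 12.6). The right keratin stretch, Krt33a to Krt42, 258.7 kb with 15 genes, held 4 summits, 15.5 per Mb (4.21 to 39.6). The intervals of the left and middle stretches do not overlap, while that of the right stretch overlaps both. The only summit of the middle stretch, with a signal of 710.0, lay 6684 bp from Krtap1-5.

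Long empty stretches covered much of the keratin-associated arrays. On chromosome 16, 579.4 kb from chr16:88938473 to chr16:89517835 had no summit and held 10 members, Krtap16-3 to Krtap7-1. On chromosome 11, 430.7 kb from chr11:99574332 to chr11:100005002 had none and held 20 members, Krtap1-5 to Krtap17-1. In the chromosome 15 cluster the longest was 129.7 kb with 6 members, Krt72 to Krt76. Of the gaps between neighbouring summits over the whole list, 0.818% were longer than the first, 1.32% longer than the second and 7.01% longer than the third. The median gap was 16.6 kb. These shares count gaps and not bases, and each gap was picked as the longest of its cluster. By length, empty stretches were less rare: of 2625 tiles of 1 Mb over the genome, 7.89% held no summit. Tiles of unsequenced bases, which can hold no summit, are counted here and can raise this share. The share of sequenced tiles alone was not computed.

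Repeated sequence can hide peaks where reads cannot be placed, so the share of words of 32 bases that occur once in the assembled chromosomes was computed. It was 80.1% in the keratin-associated stretch of chromosome 11, 93.2% in the left and 93.7% in the right keratin stretch. It was 80.3% in the long gap on chromosome 16 and 79.7% in that on chromosome 11, against 83.6% at a 20 kb grid over the chromosomes. The lowest shares inside clusters were 71.6% on chromosome 10 and 73.8% on chromosome 7, and the cluster on chromosome 7 was the densest in summits of the 6. Whether read placement lowered the number of summits in the arrays was not tested.

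**Figure D4:**
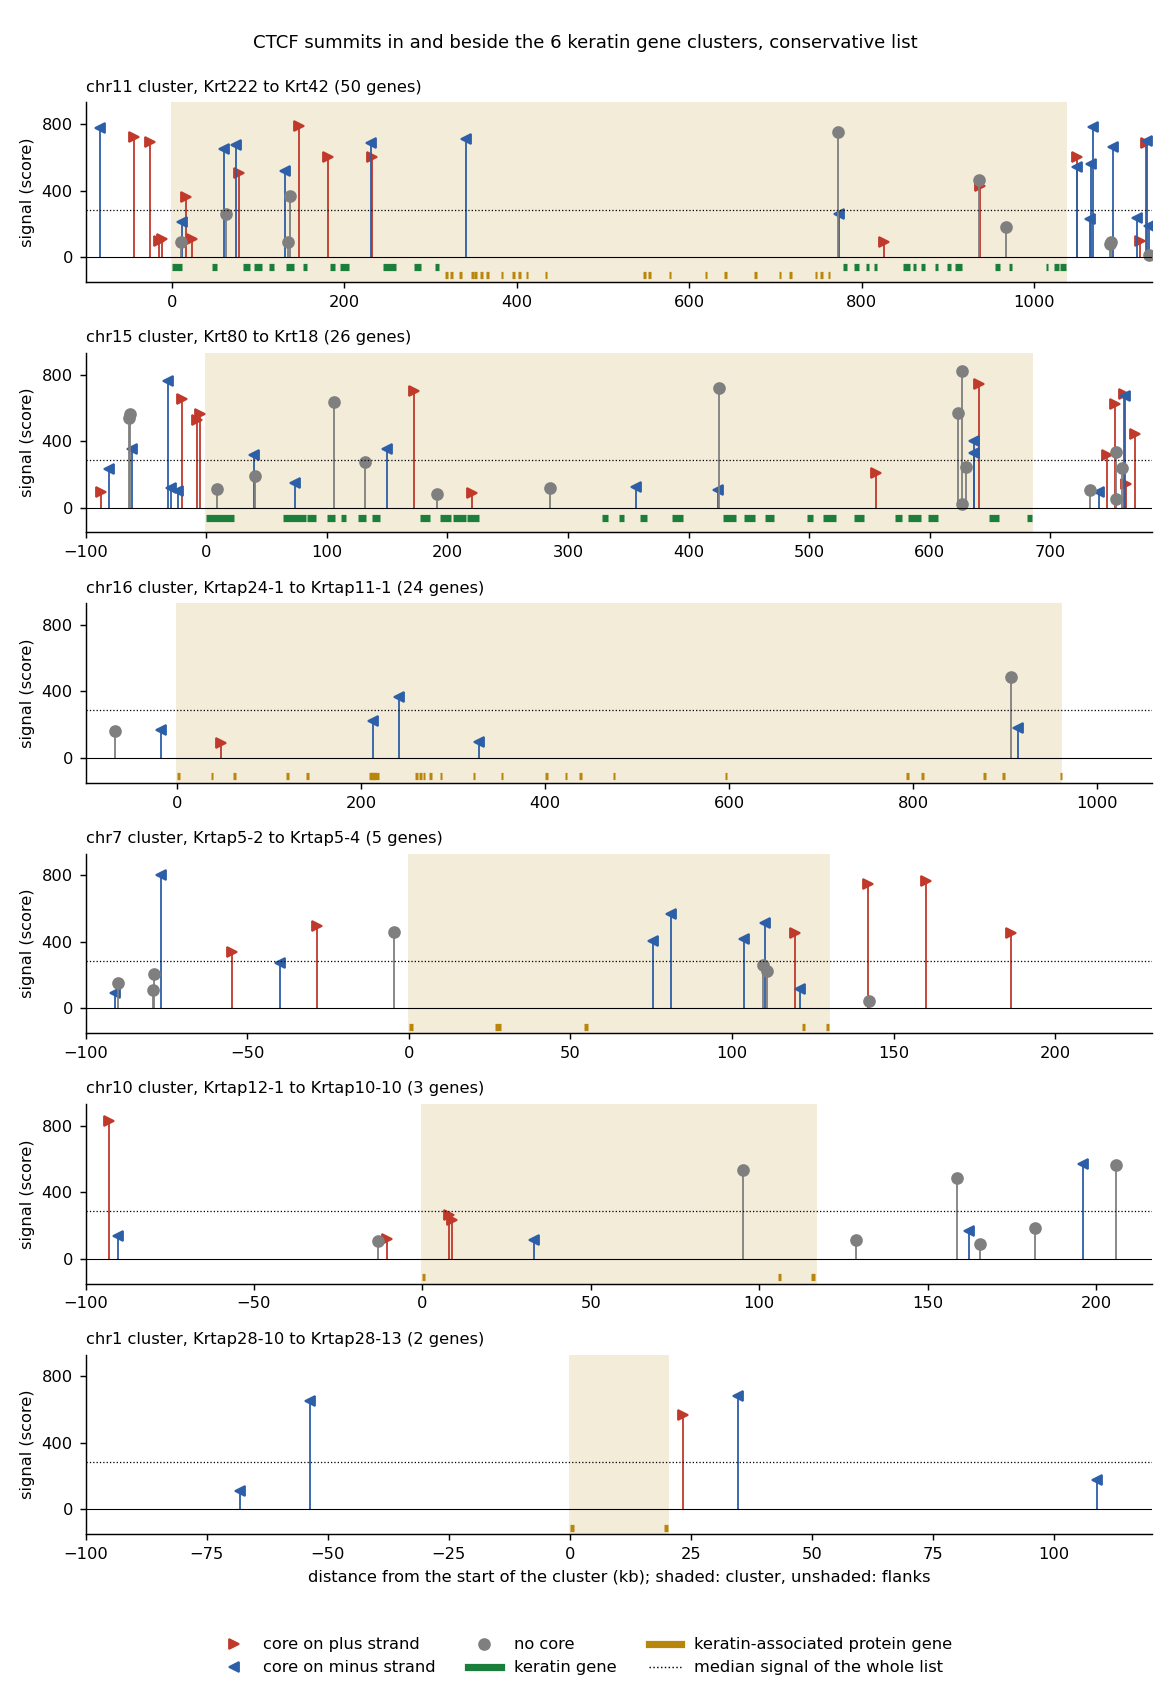
The 6 clusters (shaded) with their 100 kb flanks, by distance from the start of the cluster (x axis, kb) and signal of each conservative summit (y axis, score); triangles point right for a core on the plus strand and left for one on the minus strand, and circles have no core. Bars below 0 are keratin (green) and keratin-associated protein (ochre) genes; the chromosome 11 array holds 1 summit in 443.9 kb and the chromosome 16 cluster 6 in 960.5 kb.

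Exact copies of the core were likewise denser in the flanks than inside. There were 27.5 copies per Mb inside the clusters and 67.5 in the flanks, against 29.6 over the genome. Of the 81 copies inside, 23 had a summit within 100 bp (28.4%, 18.9 to 39.5%), and of the 81 in the flanks 21 had one (25.9%, 16.8 to 36.9%). Over the whole genome it was 23.9% (18104 of 75825). The chromosome 16 cluster had 12.5 copies per Mb, of which 16.7% were occupied. Both intervals of occupancy hold the share of the genome. Most copies lay in soft-masked sequence, so these values mainly describe such copies. Outside it lay 30 of the 81 copies inside and 20 of the 81 in the flanks, of which 14 and 13 had a summit. Over the genome 17382 copies lay outside it, and 9081 of them had one.

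Few of the summits inside the clusters were at a promoter of any kind. Of the 62, 4 were within 1 kb of any annotated TSS (6.45%, 1.79 to 15.7%), against 20.4% of the whole list (11072 of 54309). They were the pair at Krt222 and 1 each at the noncoding RNA genes Gm49501, within Krt86, and Gm45889, in the Krtap5 cluster. In the flanks 21 of 72 were at a promoter (29.2%, 19 to 41.1%). That share was 9.68% (3 of 31) when flanks of 50 kb were used, so the promoter summits of the flanks lay mostly more than 50 kb from the cluster borders.

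The remaining summits inside were mostly between genes. There were 42 intergenic summits (67.7%), 13 in introns (21.0%) and 3 in coding exons (4.84%), the last in Krt28, Krt88 and Krt75. In all, 9 of the 62 lay in the body of a member gene (14.5%). The strongest of the exon summits was in Krt88, with a signal of 636.7, matched by 325.1 in pool G and 314.6 in pool H. Those in Krt28 and Krt75 had signals of 89.8 and 86.5, below the lower quartile of the whole list (134.1).

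Protein-coding genes that overlap the clusters without being members had no promoter summit either. It was 0 of 18 on chromosome 11, 0 of 3 on chromosome 15 and 0 of 14 on chromosome 16. On chromosomes 7, 10 and 1 it was 0 of 5, 0 of 13 and 0 of 2. All of these genes had a CpG-poor promoter, and 16.7% of that class were bound over the genome. Taken 1 cluster at a time, the intervals, up to 18.5% on chromosome 11 and higher on the others, each hold that share. Each rests on few genes, and no interval was computed for these genes pooled over the clusters. The single intervals thus do not show that these genes as a set were bound as often as that class. Genes of the flanks were bound in 3 of 6 cases on chromosome 11, 4 of 6 on chromosome 15, 3 of 12 on chromosome 10 and 2 of 9 on chromosome 7. On chromosome 16 it was 0 of 1 and on chromosome 1 it was 0 of 7. The intervals of these flanking genes each hold the 34.8% of all protein-coding genes. The median CpG ratio of the flanking genes was 0.689 on chromosome 11 and 0.756 on chromosome 15, and at most 0.325 around the other 4 clusters.

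The summits inside the clusters covered nearly the whole range of signals of the list. Their median signal was 323.5 (interquartile range 155.8 to 528.7), 1.13 times the list median, and 32 of the 62 were at or above the list median (51.6%, 38.6 to 64.5%), against 50% of the whole list by construction. In the flanks the median was 324.7 and 37 of 72 were at or above it. By cluster the median was 444.5 on chromosome 11, 409.1 on chromosome 7, 260.0 on chromosome 15, 250.7 on chromosome 10 and 199.7 on chromosome 16. The range inside was 22.1 to 818.6, and these medians rest on 22, 8, 22, 4 and 6 summits.

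**Figure D5:**
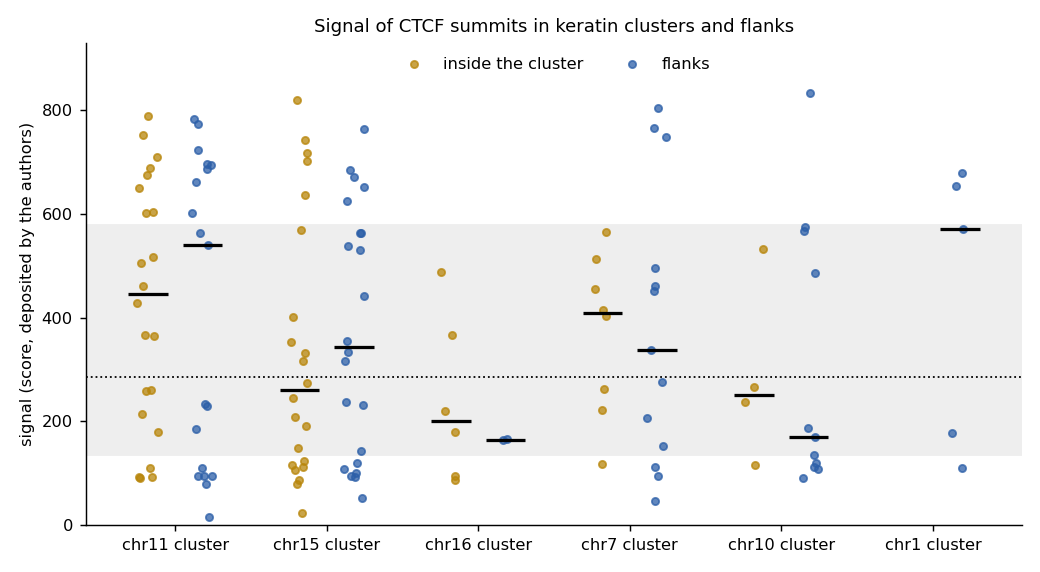
Signal of each conservative summit (y axis, score without a unit) inside each cluster (ochre) and in its flanks (blue), with black bars at the medians. The dotted line is the median of the whole list, 285.9, and the grey band its interquartile range, 134.1 to 578.7. Signals run from 89.8 to 788.4 inside the chromosome 11 cluster and from 22.1 to 818.6 inside the chromosome 15 cluster.

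The strongest summit inside any cluster lay between Krt78 and Krt8 on chromosome 15, at chr15:101973532-101974227, with a signal of 818.6 (433.0 in pool G and 385.5 in pool H). Of the whole list 99.2% had a lower signal, and no core was found there. It belongs to a group of 7 summits from chr15:101970762 to chr15:101988282, beyond the 3′ end of Krt8, which includes a further strong one of 742.9 at 16200 bp from the TSS of Krt8. Cores in this group were found at 3 of the 7, and that nearest to Krt8 was on the plus strand and the other 2 on the minus strand.

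The next strongest were on chromosome 11. The site upstream of Krt28 had 788.4 (410.1 in pool G and 382.7 in pool H), followed by one of 752.6 at 8985 bp from Krt33a, a hair keratin gene, which bounds the long gap on its right. The summit near Krtap1-5 that bounds the gap on its left had 710.0 (368.6 in pool G and 342.3 in pool H). The other 5 of the 10 strongest were near Krt72 (716.9), Gm49425 (701.3), Krt20 (688.3), Krt25 (674.0) and Krt24 (649.0). The long empty array of chromosome 11 was thus bounded by 2 of the 6 strongest summits of all clusters.

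In the flanks the strongest was 832.3 in an intron of Ube2g2, a ubiquitin-conjugating enzyme gene beside the chromosome 10 cluster. It was followed by 803.5 just upstream of Dusp8, a phosphatase gene beside the Krtap5 cluster, 783.0 near Eif1 and 773.9 in Ccr7, a chemokine receptor gene. Of the rest of the 10 strongest, 1 lay in an intron of Ifitm10 (765.0) and 1 within 1 kb of the TSS of the annotated locus Gm49499 (762.9). The others were between genes, 13157 bp from Krtap5-4 (747.5), 23974 and 6167 bp from Smarce1 (722.4 and 694.1), a subunit gene of the BAF chromatin remodelling complex, and upstream of Hap1 (696.2). Chromosomes 11 and 7 held 8 of these 10.

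The pools gave similar sets of summits. Of the 62 summits inside, 58 had a summit of the pool G list within 100 bp (93.5%) and 56 one of the pool H list (90.3%), against 90.5% and 87.9% of the whole list. The matched signal was higher in pool G for 57 of the 62, with a median ratio of pool G over pool H of 1.18, against 1.23 over the whole list. A second summit of the same interval takes over a matched value from the first, as at chr15:101974105, so single ratios there are not meaningful. With 2 pools of 1 condition, these values describe agreement and no difference between pools was tested.

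Pooled over the clusters, candidates below the threshold were less dense than over the genome. In the ranked list matched between pools, 62 of 123 candidates inside had passed the IDR threshold (50.4%, 41.2 to 59.5%), against 32.7% of all candidates. Candidates that did not pass numbered 20.7 per Mb inside (15.8 to 26.6), against 42.4 per Mb over the genome. On chromosome 16 they numbered 7.29 per Mb (2.93 to 15) and on chromosome 15 they numbered 36.5 per Mb (23.6 to 53.9). The sparse chromosome 16 cluster was therefore sparse in weak candidates as well.

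A core was found at 40 of the 62 summits inside (64.5%, 51.3 to 76.3%) and at 51 of the 72 in the flanks (70.8%, 58.9 to 81%), against 66.1% of the whole list. By cluster it was 15 of 22 on chromosome 11, 11 of 22 on chromosome 15, 5 of 6 on chromosome 16, 6 of 8 on chromosome 7 and 3 of 4 on chromosome 10. Inside, the summits with a core had a median signal of 358.2 and those without one 260.3. In the flanks these medians were 495.1 and 151.3, and over the whole list 361.1 and 193.1.

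The 40 cores inside used 29 different words. The most common word of the whole list, shown in the first set of sequences, made up 6 of the 40 (15%, 5.71 to 29.8%) and 18.8% of all cores of the list (6758 of 35901). At 4 of these 6 sites the base at the summit was soft-masked, all but the Krt222 distal and Krtap7-1 sites. Over the whole list the core itself was soft-masked at 99.7% of the sites with this word, which is another measure. The sites share bases beyond the core: the Krt222 upstream site and the site at Gm10100 in Tspear, on another chromosome, had 14 of the 18 bases outside the core in common, and the pair within Tspear had 15 of 18. Of the 40 summits with a core inside, 9 had a soft-masked base at the summit (22.5%). Over the whole list 30.4% of the cores were themselves soft-masked. The first share reads the summit and the second the core, so they cannot be set against each other.

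The Krtap5 cluster held 2 pairs of sites with a shared core, picked as its pairs with at least 23 of 30 bases identical. Such pairs were not particular to this cluster. The pair within Tspear shared 27 of 30 bases, and the Krt222 upstream and Krt24 upstream sites on chromosome 11 shared 25. Sites 2 and 3 share the core and, outside it, 13 of 18 bases, and had signals of 565.8 and 415.0. Sites 1 and 4 share the core and, outside it, 11 of 18 bases, and had signals of 403.2 and 118.4. The core of sites 2 and 3 made up 0.178% of the cores of the whole list (64 of 35901). All 4 lay on the minus strand, which carried 5 of the 6 cores of this cluster.

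Cores pointed in both directions. Inside the clusters 16 were on the plus and 24 on the minus strand (40.0% plus, 24.9 to 56.7%), and in the flanks 24 and 27 (47.1% plus, 32.9 to 61.5%), against 49.9% plus over the whole list. Clusters and flanks together had 44.0% plus (40 of 91, 33.6 to 54.8%). Single clusters and flanks hold too few cores to compare: the chromosome 7 cluster had 1 plus and 5 minus and its right flank 3 plus and 0 minus, the chromosome 16 cluster had 1 plus and 4 minus, and the left flank of the chromosome 11 cluster had 4 plus and 1 minus. Each of the 3 intervals holds the 49.9% of the whole list.

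Neighbouring cores within a cluster and its flanks formed 85 pairs. A pair is convergent when the left core is on the plus and the right on the minus strand, divergent in the reverse case and tandem when both point the same way. There were 21 convergent pairs (24.7%, 16 to 35.3%), 21 divergent (24.7%) and 43 tandem (50.6%, 39.5 to 61.6%). The whole list had 24.1%, 24.1% and 51.9%. The intervals of the keratin clusters hold the shares of the whole list.

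Across each cluster, the nearest core outside the left border and that outside the right border were compared. They were convergent at 3 of the 5 clusters with a core in both flanks. Around the chromosome 11 cluster, the left site had a signal of 109.6 and lay 10.8 kb out, near Smarce1, and the right one had 540.6 and lay 12.3 kb out, which made a span of 1060.2 kb. Around the chromosome 15 cluster the left site had 562.1 at 5.47 kb and the right one 95 at 55.3 kb, near Eif4b, a span of 745.4 kb. The weaker site of each of these pairs was below the lower quartile of the whole list.

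The other 4 clusters varied. The chromosome 10 cluster was convergent over 172.7 kb, with signals of 119.9 on the left and 169.4 on the right. The Krtap5 cluster was tandem, both on the plus strand, with 495.1 on the left and 747.5 on the right. The chromosome 1 cluster was divergent over 77.0 kb, with 653.5 and 570.0. The chromosome 16 cluster had a core on the left alone, on the minus strand, with a signal of 165.8 at 17.7 kb. Orientation is given as counts, since 5 clusters are too few to set against a background, and no contact between the sites was measured here.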

How the data were processed

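The 4 libraries, 2 per pool, entered the authors' peak lists together, so no list of a single library was used. The authors deposited thresholded and ranked peak lists with mm10 as the build named in the labels. No aligner or caller is given in the sources used here, and the control alignment was not analysed here. Each deposited peak holds a signal score without a stated unit and a scaled IDR score, where 540 stands for 0.05 and 830 for 0.01. Read depth is unknown. Deposited readme texts name the pool behind each list. Of the matched signals in the ranked list of both pools, 77.3% of those taken as pool G and 71.7% of those taken as pool H were found in that pool's own ranked list at the same position and signal.

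Summits, genes (GENCODE M21) and sequence (GRCm38.p6) were joined in Python 3.11.15 with numpy 2.4.6 and scipy 1.17.1; figures used matplotlib 3.10.9. Shares have exact binomial and densities exact Poisson 95% intervals, which cover counting error only. A distance of a gene is that of its nearest TSS. The motif search was tested on simulated sequence. Members, lists and the rule for named genes (members with a promoter summit, 12 fixed keratins, the 10 strongest summits inside and in the flanks, and the nearest cores outside the borders) were chosen with earlier results of these data known. Other genes were named after their values were seen: the ends of the stretches, the nearest and farthest members, the genes with candidates, the CpG-rich members, flanking genes and examples of the related lists. The search for shared words and site pairs was also added after the summits had been seen. The alternatives were other lists, promoter windows, cluster gaps, flank widths, core rules and distinct intervals.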

Additional observations from a re-analysis of the deposited data

How the results depend on the processing

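Of 70 alternative values for the 10 main shares, densities and medians, 62 lay within the 95% interval of the reported value. Promoter occupancy of the members was 0% with a promoter window of 500 bp and 5.45% with one of 5 kb. The promoter share of the summits inside was 0% and 38.7% under these windows, and that in the flanks was 62.5% with 5 kb. With flanks of 50 kb the promoter share in the flanks was 9.68%. An exact core was found at 37.1% of the summits inside and 29.2% of those in the flanks. The other lists, the stricter IDR of 0.01, cluster gaps of 100 and 500 kb, flanks of 200 kb, distinct intervals, 1 TSS per gene and a core within 50 bp moved none of these values out of its interval. Leaving out a library could not be done, because the lists combine libraries; the lists of single pools stand in for it. No paired analysis was possible because the lists carry no library of their own and no groups were compared. Depth is unknown, so a member without a summit is one without a summit in these lists, not one shown to lack CTCF.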
